A study of Mus musculus with 4 samples.

Results

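T cells of mouse MC38 tumours were described from single-cell RNA counts of sorted CD45+ cells. They were the cells that the authors' deposited annotation placed in the major cell type "T cells", 333 of 4440 cells, and no measured value was used to choose them beyond that annotation. MC38 is a mouse colon carcinoma line. It was injected in the flank of mice that all carried the IL-12p40-IRES-EYFP transgene, a fluorescent reporter of the interleukin-12 p40 gene, and was left to grow for 7 days. The treated mice then received 5 mg/kg of an agonist anti-CD40 monoclonal antibody into the peritoneum, and the others none. Tumours were taken 2 days later, stained with 7AAD, a dye that enters dead cells, and sorted for CD45, the common surface protein of blood-derived cells. The age and sex of the mice are not given in the labels. The 2 treated tumours, called anti-CD40 tumours 1 and 2, gave 48 and 135 T cells, and the 1 untreated tumour gave 150.

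T cells recognise peptides held by major histocompatibility (MHC) molecules through the T cell receptor, whose signal is passed into the cell by the CD3 chains. CD8+ T cells read MHC class I and can kill target cells with granzymes and perforin, while CD4+ T cells read MHC class II and help or restrain other cells. A part of the CD4+ lineage, the regulatory T cells, is defined by the transcription factor FOXP3 and carries CTLA4, CD25 and ICOS, and such cells are frequent in transplanted mouse tumours. CD40 sits mainly on antigen-presenting cells and is engaged in the body by CD40 ligand of helper T cells.

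Promoters are shown for 4 genes that carry the results below. Cd3d and Ctla4 were among the genes that marked T cells, and Cd8a and Foxp3 were among the 4 genes used to split them. The sequences are from RefSeq on GRCm38.p6 and run 5′ to 3′ on the gene's strand, from 250 bases before the start of the gene to 50 bases after it. The start is that of RefSeq, and for Ctla4 it lies inside the span given for the gene further below. They lie at chr9:44981536-44981835, plus strand for Cd3d, at chr1:60908775-60909074, plus strand for Ctla4, at chr6:71373177-71373476, plus strand for Cd8a and at chrX:7579426-7579725, plus strand for Foxp3. Capitals mark matches on either strand to any of 4 motifs. For RUNX factors the letters searched were TGTGGT. For TCF/LEF factors, which act in T cell development, they were CTTTGA. For ETS factors they were CCGGAA. The general promoter element called the TATA box was searched as TATAAA, and no matches overlapped in these windows.
Cd3d promoter: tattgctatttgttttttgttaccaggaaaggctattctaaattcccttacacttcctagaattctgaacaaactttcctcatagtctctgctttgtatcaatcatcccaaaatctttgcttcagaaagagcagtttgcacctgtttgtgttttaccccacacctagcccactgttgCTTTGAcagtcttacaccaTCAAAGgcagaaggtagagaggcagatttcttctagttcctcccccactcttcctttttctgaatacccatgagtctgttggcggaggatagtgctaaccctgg
Ctla4 promoter: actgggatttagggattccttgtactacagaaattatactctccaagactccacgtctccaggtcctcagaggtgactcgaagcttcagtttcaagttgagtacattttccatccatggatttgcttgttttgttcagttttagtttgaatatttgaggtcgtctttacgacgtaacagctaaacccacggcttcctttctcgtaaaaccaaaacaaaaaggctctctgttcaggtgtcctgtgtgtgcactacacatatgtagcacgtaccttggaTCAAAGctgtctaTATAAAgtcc
Cd8a promoter: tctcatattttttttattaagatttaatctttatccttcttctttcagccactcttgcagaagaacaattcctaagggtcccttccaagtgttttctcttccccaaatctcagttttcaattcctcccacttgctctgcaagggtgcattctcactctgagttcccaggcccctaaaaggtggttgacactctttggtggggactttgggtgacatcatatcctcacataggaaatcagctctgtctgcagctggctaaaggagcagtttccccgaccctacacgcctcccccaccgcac
Foxp3 promoter: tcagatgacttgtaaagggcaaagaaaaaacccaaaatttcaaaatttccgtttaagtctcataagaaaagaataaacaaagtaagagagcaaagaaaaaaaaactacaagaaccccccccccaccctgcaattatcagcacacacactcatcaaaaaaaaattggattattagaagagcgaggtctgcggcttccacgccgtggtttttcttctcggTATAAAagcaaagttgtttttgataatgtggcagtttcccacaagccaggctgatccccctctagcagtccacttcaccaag
The Cd3d window held the TCF/LEF letters at 2 places. The Ctla4 window held them once, followed by the TATA box letters, and both matches lay after the start. The Foxp3 window held a TATA box, and none of the letters were in the Cd8a window. Of the 25 leading marker genes described next, 14 had a window in the table. The TCF/LEF letters were in 5 of these 14, against 16.2% of all 27025 windows, the ETS letters in 3 of 14, against 15.2%, the RUNX letters in 1, against 16.9%, and the TATA box in 1, against 14.2%. These are matches of letters, not binding sites.

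RNA molecules were counted by unique molecular identifiers (UMIs), of which the T cells of anti-CD40 tumours 1 and 2 held 43300 and 106998, against 76559 in those of the untreated tumour. The median depth was 778 and 651 UMIs per T cell in anti-CD40 tumours 1 and 2, against 475.5 in the untreated tumour. The cells came from 12 libraries in 4 pools: pools 1 and 2 held the untreated tumour and anti-CD40 tumour 1, pools 3 and 4 held anti-CD40 tumour 2 alone, and 0 cell barcodes were shared between libraries. Levels are given as UMIs per 1000000 UMIs of the summed cells (CPM), and intervals cover counting error only. T cells with at least 3 UMIs from the markers of a second cell type (NK, B, neutrophil, or monocyte and macrophage) made up 10.4% and 11.9% of T cells in anti-CD40 tumours 1 and 2, against 19.3% in the untreated tumour.

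CD3 genes, which are among the defining markers, were found in T cells and were at or near 0 in other cell types. The annotation was taken to rest on these same counts, so these levels describe the label and do not test it. Cd3d, a chain of the CD3 complex, stood at 1039 and 841 CPM in T cells of anti-CD40 tumours 1 and 2, against 705 CPM in those of the untreated tumour. In NK cells, the lymphocytes most like them, Cd3d had 0, 32.7 and 42.9 CPM in the same order. Cd3e, another CD3 chain, had 7, 28 and 11 UMIs in T cells and 0 UMIs in NK cells of every tumour. Trbc2, a constant segment of the receptor beta chain, was less exclusive, at 1178, 1262 and 954 CPM in T cells, against 491, 368 and 515 CPM in NK cells. Reads of Trbc2 can be split with its near copy Trbc1, so both levels are uncertain. A UMI of Cd3e, Cd3d or Trbc2 was found in 67.9% of T cells, in 25.9% of NK cells, in 1.68% of the class of monocytes, macrophages and dendritic cells, and in 0.21% of neutrophils.

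Tnfrsf4, Icos, Rora, Ctla4 and Trp53i11 led the ranking of marker genes. The names were taken to rest on these same counts, so the levels describe the annotation and were not tested. Genes with at least 20 UMIs in T cells and 3 in each tumour were ranked by the mean CPM of 3 tumours in T cells over the highest mean in NK cells, B cells, neutrophils or the monocyte, macrophage and dendritic class, with 0 UMIs read as 3. Tnfrsf4, which encodes the costimulatory receptor OX40, came first at 1871, 1365 and 1280 CPM. Its 325 UMIs in T cells stood against 1 UMI in NK cells, 1 in B cells, 49 in the monocyte, macrophage and dendritic class and 0 in neutrophils. Icos, the inducible costimulator, followed with a mean of 2759 CPM and a ratio of 15.7 over NK cells. Ctla4, the inhibitory receptor that binds CD80 and CD86, had a ratio of 11.9 over NK cells, and Trp53i11 one of 9.2. Rora, a nuclear receptor, had 58 UMIs in T cells and 1 each in NK and B cells, so the order among these genes depends on single UMIs. For a gene with 0 UMIs in B cells the floor of 3 could exceed the level of a gene with 1 UMI. That floor held down the ratio of Cd3d, so the ranking does not show Rora or Trp53i11 to be better markers than CD3 genes.

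Among the 25 leading markers were also Tnfrsf18 (GITR), Il2ra (CD25) and Ikzf2 (Helios), all of which regulatory T cells carry at high levels, and Trac, Cd3d, Cd247, Cd2, Cd28 and Cd27 of the receptor and its costimulation. Trac, the constant segment of the receptor alpha chain, averaged 1141 CPM in T cells and 13.6 CPM in NK cells. Ikzf2 averaged 1043 CPM in T cells and 38.6 CPM in NK cells, and Il2ra 1005 and 68.5 CPM. Ratios against B cells rest on only 27 B cells, which held 0 UMIs of Cd3e, Cd3d, Trbc2 and Ctla4.

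**Figure D1:**
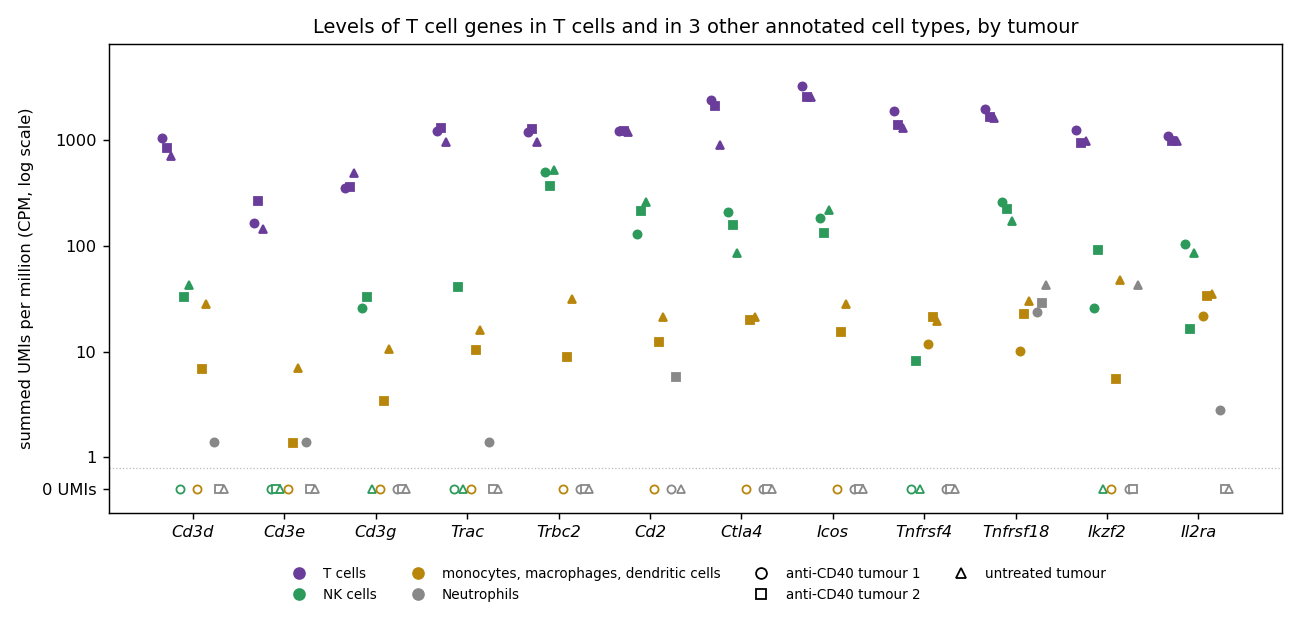
Summed level in CPM (log axis) of 12 T cell genes in T cells and in 3 other annotated cell types, 1 symbol per tumour, with open symbols on the lowest line for 0 UMIs. Cd3d lies at 705 to 1039 CPM in T cells and at 0 to 42.9 CPM in NK cells, while Trbc2 reaches 368 to 515 CPM in NK cells.

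Set against NK cells alone, Tnfrsf4 and Il7r, the interleukin-7 receptor, had 325 and 85 UMIs in T cells and 1 UMI each in NK cells. Ifi27l2a had 517 UMIs in T cells and 2 in NK cells, and Trac 261 and 5. With so few NK cell UMIs no order among these genes can be read. Cd6 and Cd4, surface proteins of T cells, had 0 UMIs in NK cells and were at least 29.6 and 28.9 times higher in T cells, with 3 UMIs over the NK cells as the floor. In the other direction Gzma, a granzyme, averaged 228 CPM in T cells and 7817 CPM in NK cells. Klrb1c, which encodes NK1.1, had 3 UMIs in all T cells, and Ncr1 and Klra8 had 0. Gzmb did not separate the cell types in this way: a Gzmb UMI was found in 64.9% of T cells and 59.9% of NK cells, against 1.82% of the monocyte, macrophage and dendritic class.

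T cells formed 3.92% (2.90 to 5.16) and 7.44% (6.27 to 8.74) of CD45+ cells in anti-CD40 tumours 1 and 2, against 10.7% (9.15 to 12.5) in the untreated tumour (exact Clopper-Pearson 95% intervals). Much of the CD45+ fraction of anti-CD40 tumour 1 was neutrophils, 700 of 1226 cells. Over cells other than neutrophils the T cell share was 9.13% (6.81 to 11.9) and 8.44% (7.12 to 9.91), against 11.1% (9.48 to 12.9), and these intervals overlap. Over T, NK and B cells it was 61.5% and 50.4%, against 71.1%. Within pool 1, which held both tumours, T cells made up 7.69% of cells other than neutrophils in anti-CD40 tumour 1, against 9.57% in the untreated tumour, and within pool 2 10.2%, against 13.0%. An exact two-sided permutation test of 2 tumours against 1 cannot give a p below 0.333, so no test of shares was run, and a lower share does not tell fewer T cells from more cells of another type.

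T cells were split by UMIs of 4 genes. A CD8-UMI cell had at least 1 UMI of Cd8a or Cd8b1, the chains of CD8, and 0 of Cd4 and Foxp3, and a CD4-UMI cell the reverse. Of 333 T cells, 25 were CD8-UMI, 113 CD4-UMI, 2 held both and 193 neither. A cell of neither class may lack CD4 and CD8 or have had their RNA missed, which was not tested. The class genes were rare elsewhere: Cd8a or Cd8b1 UMIs were in 8.11% of T cells (median 575 UMIs per cell), 1.02% of NK cells (median 774), 0.48% of the monocyte, macrophage and dendritic class (median 659) and 0 of 964 neutrophils, which allows a share of up to 0.31%. Cd4 or Foxp3 UMIs were in 34.5% of T cells, in 0 of 197 NK cells, which allows up to 1.52%, and in 0.62% of the monocyte, macrophage and dendritic class.

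The CD8-UMI share of classed cells was 15.4% (4 of 26 cells, interval 4.36 to 34.9) and 15.6% (10 of 64, 7.76 to 26.9) in anti-CD40 tumours 1 and 2, against 22.9% (11 of 48, 12 to 37.3) in the untreated tumour. The 3 intervals overlap, but they cover counting error within a tumour and not the spread between tumours. With 1 untreated tumour and few CD8-UMI cells, a difference in the balance of the classes was not tested. With every cell thinned to 300 UMIs the shares were 15.4% and 14.3%, against 23.3%, with 1 and 8 shallower T cells left out in the anti-CD40 tumours, against 26 in the untreated tumour. CD4-UMI cells were 45.8% and 40.0% of all T cells in anti-CD40 tumours 1 and 2, against 24.7% in the untreated tumour, but after thinning 23.4% and 28.3%, against 18.5%, so the gap was smaller at equal depth.

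Foxp3 UMIs, the mark of regulatory T cells, were found in most CD4-UMI cells of each tumour. They were in 12 of 22 (54.5%) and 31 of 54 (57.4%) CD4-UMI cells of anti-CD40 tumours 1 and 2, against 25 of 37 (67.6%) of the untreated tumour. These shares are set by the rule that made the class and by depth, and a CD4-UMI cell without a Foxp3 UMI may still have expressed it. Exons of Foxp3 overlap Flicr on the same strand and Ccdc22, Ppp1r3f and Gm36995 on the other. Whether counting used strand is not given, so some reads counted for Foxp3 may belong to these genes.

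**Figure D2:**
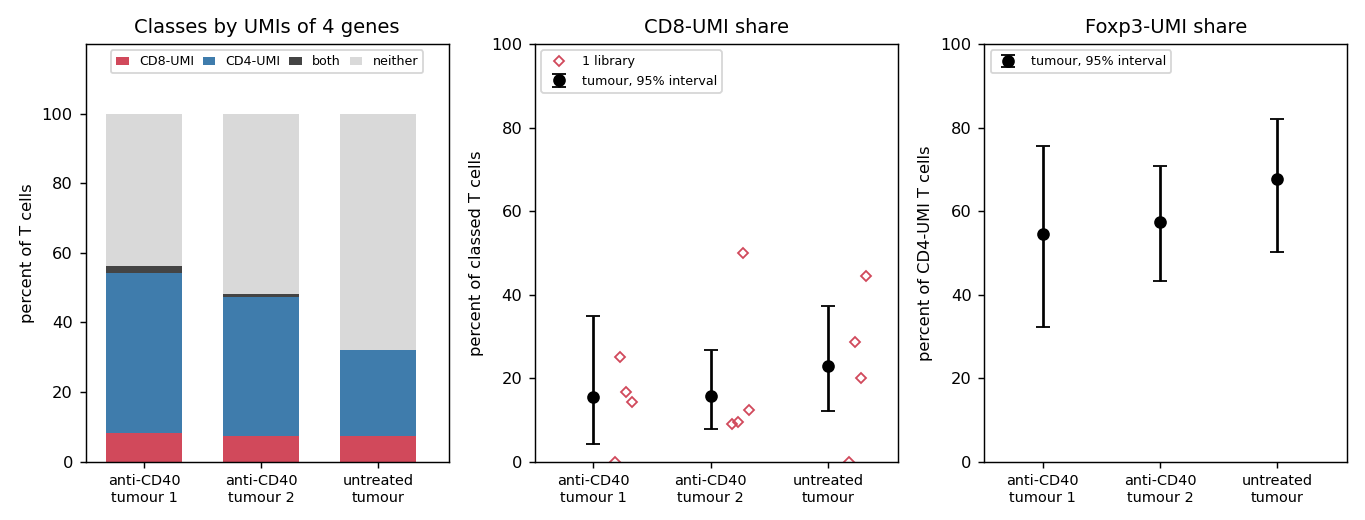
Left, percent of T cells in each class by tumour. Middle, CD8-UMI percent of classed T cells with exact 95% intervals and 1 diamond per library. Right, percent of CD4-UMI cells with a Foxp3 UMI. The CD8-UMI shares of 15.4%, 15.6% and 22.9% have intervals that overlap.

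CD8-UMI cells were set against CD4-UMI cells to ask which genes follow the 2 lineages in these tumours. CD8-UMI cells were higher in Nkg7, Ccl5, Ms4a4b and Plac8 and lower in a group of costimulatory and regulatory genes that included Icos, Tnfrsf4, Tnfrsf18, Tnfrsf9, Ctla4, Il2ra, Ikzf2 and Maf. They were also lower in Gzmb. UMIs were summed per tumour and class and fitted with edgeR's quasi-likelihood test with the tumour as a block and Benjamini-Hochberg adjustment. At an adjusted p under 0.05, 6 of 545 genes (1.1%) were higher in CD8-UMI cells and 24 (4.4%) lower, and 94 had an unadjusted p under 0.05. The adjustment ran over 549 fitted genes, including the 4 class genes, whose low p-values follow from the class rule. Adjusted p-values of the other genes are therefore smaller than they would be over the 545 alone. The call of Sla (adjusted p = 0.0487, edgeR) lies just under the threshold. DESeq2 called 4 higher and 20 lower. Without anti-CD40 tumour 2 edgeR called 0 in either direction, with 55 at an unadjusted p under 0.05. The p-values cover these 3 tumours only. The fit had 2 residual and 14.8 prior degrees of freedom, so they rest largely on a spread shared over genes. A lower sum does not tell fewer expressing cells from less RNA per cell, and the median log2 fold change of all genes was -0.09. CD8-UMI sums held 4245, 9295 and 5721 UMIs in anti-CD40 tumours 1 and 2 and the untreated tumour, against 22559, 49430 and 23111 UMIs for CD4-UMI sums. A gene could enter the test through the larger CD4-UMI sums alone, while Klrd1, Klrk1 and Xcl1, found in CD8-UMI but not in CD4-UMI cells, were too low, so the split of higher and lower genes does not measure a balance between the classes.

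Of the genes higher in CD8-UMI cells, Ms4a4b (chr19:11443553-11467055, plus strand, GRCm38), a tetraspan membrane protein of T cells, had 2591, 1721 and 3146 CPM in CD8-UMI cells of anti-CD40 tumours 1 and 2 and the untreated tumour, against 177, 243 and 433 CPM in CD4-UMI cells. Its log2 fold change was 2.95 ± 0.44 (SE; adjusted p = 0.000494, edgeR), and the groups did not overlap. Plac8 had 1885, 1937 and 1049 CPM in CD8-UMI cells, against 44.3, 142 and 130 CPM in CD4-UMI cells (3.71 ± 0.59, adjusted p = 0.000965). Nkg7, a protein of cytotoxic granules, had 2120, 2474 and 3146 CPM, against 887, 546 and 779 CPM (1.75 ± 0.34, adjusted p = 0.00319). All 3 genes were higher in CD8-UMI cells in every tumour, which the rule for naming genes required.

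Ccl5 (chr11:83525778-83530518, minus strand), a chemokine of effector T cells, had 6832, 1506 and 1573 CPM in CD8-UMI cells, against 621, 425 and 43.3 CPM in CD4-UMI cells (2.80 ± 0.45, adjusted p = 0.000968). The high value of anti-CD40 tumour 1 came from 29 UMIs in 2 cells, 18 of them in 1 cell. The other genes that were higher were Rpl27a, a ribosomal protein gene whose reads can be shared with pseudogenes (0.75 ± 0.19), and Gdi2, a regulator of Rab GTPases (2.33 ± 0.62). Beside Rpl27a, 24 of 27 tested ribosomal protein genes of the quality list had a positive fold change, with a median of 0.28 and 0 past the test.

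Gzmb (chr14:56258838-56262260, minus strand) encodes granzyme B, a protease that induces death of target cells, and is textbook equipment of CD8+ killers. It had 707, 2367 and 2447 CPM in CD8-UMI cells of anti-CD40 tumours 1 and 2 and the untreated tumour, against 5541, 6272 and 7442 CPM in CD4-UMI cells. Every CD4-UMI sum lay above every CD8-UMI sum, and the log2 fold change was -1.81 ± 0.27 (adjusted p = 0.000494, edgeR). At least 1 Gzmb UMI was found in 56.0% of CD8-UMI cells, against 83.2% of CD4-UMI cells, and in 41.7%, against 72.7%, after thinning to 300 UMIs. The CD8-UMI values rest on 3, 22 and 14 UMIs, against 125, 310 and 172 UMIs.

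Of the 20 genes in the list of regulatory T cell genes, 10 were tested, and 8 of these were lower in CD8-UMI cells and 0 higher. Of all 545 genes, 24 (4.4%) were lower and 6 (1.1%) higher. Foxp3 UMIs helped to define the CD4-UMI class and were barred from the CD8-UMI class. Higher regulatory genes in CD4-UMI cells therefore follow in part from the rule, and the count is no independent support. Il10, with 0 UMIs in CD8-UMI cells, entered the test only through the CD4-UMI sums, which fixed its direction, and Il2ra and Ikzf2 had 2 and 3 UMIs in CD8-UMI cells, so the count and the median describe the tested members only. The list's median log2 fold change was -2.20, and -1.97 once Il10, absent from CD8-UMI cells, was placed at its bound, against -0.09 for all genes. Icos had 1413, 430 and 1224 CPM in CD8-UMI cells, against 3768, 3318 and 2986 CPM in CD4-UMI cells (-1.99 ± 0.33, adjusted p = 0.00106). Tnfrsf4 had 471, 108 and 524 CPM, against 2660, 1780 and 1601 CPM (-2.71 ± 0.48, adjusted p = 0.00167). Both receptors signal to activated and regulatory T cells, and no CD8-UMI sum reached a CD4-UMI sum.

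Ctla4 had 942, 430 and 0 CPM in CD8-UMI cells, against 3147, 2246 and 865 CPM in CD4-UMI cells (-2.40 ± 0.45, adjusted p = 0.00221). Within every tumour the CD8-UMI value was the lower, which the naming rule required. The CD8-UMI value of anti-CD40 tumour 1 lay just above that of untreated CD4-UMI cells. Il2ra, the high-affinity chain of the interleukin-2 receptor, had 2 UMIs in all CD8-UMI cells and 124 in CD4-UMI cells, which were 12.6 times higher per UMI summed (95% interval 3.40 to 105). Ikzf2 had 3 UMIs, against 110, and was 7.43 times higher in CD4-UMI cells (2.48 to 36.6). Both genes passed. Tnfrsf18 (-1.51 ± 0.37, adjusted p = 0.0169) and Tnfrsf9 (4-1BB; -1.72 ± 0.38, adjusted p = 0.00804) were the other costimulatory receptors that were lower. Il10, which encodes an anti-inflammatory cytokine, had 0 UMIs in CD8-UMI cells and 621, 708 and 346 CPM in CD4-UMI cells, which were at least 3.85 times higher.

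Maf, a transcription factor that drives Il10 in helper and regulatory T cells, had 1 UMI in CD8-UMI cells and 142 in CD4-UMI cells, a ratio of 28.8 (5.08 to 1144) in favour of CD4-UMI cells. Ccr2, a chemokine receptor, and Arl5a, a small GTPase, had 0 UMIs in CD8-UMI cells and were at least 5.74 and 6.28 times higher in CD4-UMI cells. Odc1, the first enzyme of polyamine synthesis, had 236, 215 and 350 CPM in CD8-UMI cells, against 1507, 2185 and 1428 CPM in CD4-UMI cells (-2.84 ± 0.50, adjusted p = 0.00146). The remaining genes lower in CD8-UMI cells were Serinc3, Vim, Ly6e, Ifi27l2a, Itm2b, Ly6a, Pkm, Rap1b, Fth1, Glrx and Sla. Of these, the 7 with at least 10 UMIs in CD8-UMI cells (Serinc3, Vim, Ly6e, Ifi27l2a, Ly6a, Pkm and Fth1) ranged from -2.03 ± 0.36 for Serinc3 to -1.09 ± 0.28 for Fth1.

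**Figure D3:**
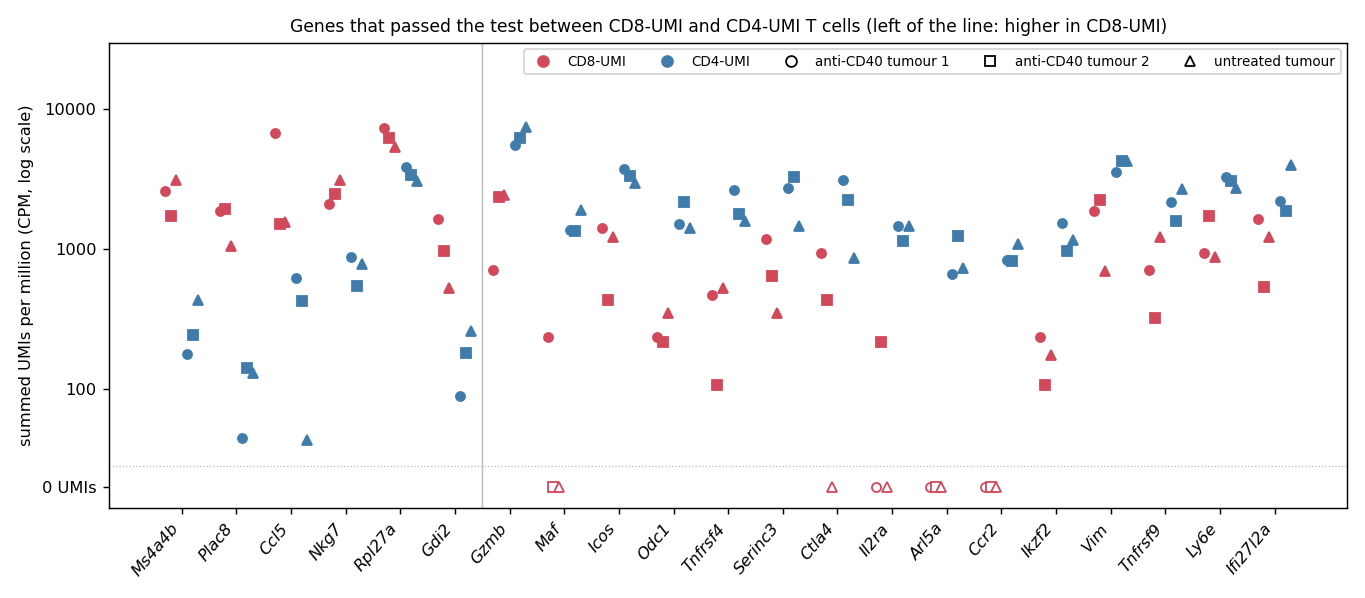
Summed level in CPM (log axis) of the 21 named genes that passed the test, in CD8-UMI and CD4-UMI T cells, 1 symbol per tumour, with open symbols for 0 UMIs. Gzmb, Icos and Tnfrsf4 are lower in CD8-UMI than in CD4-UMI cells of all 3 tumours, and Ms4a4b, Plac8, Ccl5 and Nkg7 are higher. Genes were named only if the sign was the same in all 3 tumours.

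The other lists gave few calls. Among 12 tested genes of the receptor and CD3 list 0 passed, with a median of -0.02. Trbc2 (1.14 ± 0.40, adjusted p = 0.112) and Thy1 (0.91 ± 0.29, adjusted p = 0.0846) had positive folds that missed the threshold. Of 3 tested cytotoxic genes Nkg7 was higher and Gzmb lower, and of 5 tested checkpoint genes Ctla4 alone passed. Pdcd1, which encodes PD-1, had a log2 fold change of 1.63 ± 0.87 (adjusted p = 0.349, edgeR), and Lag3 of -0.32 ± 0.64 (adjusted p = 0.853). Lists of proliferation (4 tested), interferon gamma response (8), MHC class I (8), interleukin-12 and interleukin-18 response (2), naive and memory genes (2), mitochondrial transcripts (10) and dissociation stress (10) had 0 genes past the test. Type I interferon (4 tested) and glycolysis (11 tested) had 1 each, Ifi27l2a and Pkm, both lower.

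Several lineage genes had too few UMIs for the test. Klrd1 and Klrk1, receptors that CD8+ T cells share with NK cells, each had 8 UMIs in CD8-UMI cells and 0 in CD4-UMI cells, and were at least 13.2 times higher per UMI summed. Xcl1, a chemokine that attracts cross-presenting dendritic cells, had 14 UMIs, against 0, of which 11 lay in 2 cells of the untreated tumour. Izumo1r, the folate receptor 4 of regulatory T cells, had 0 UMIs in CD8-UMI cells, against 51 in CD4-UMI cells, which were at least 3.44 times higher. Cd40lg, the natural ligand of CD40, had 0 UMIs in all 333 T cells, which allows a share of cells with a UMI of up to 0.901%, and Ifng had 10, all of them in anti-CD40 tumour 2.

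To see how far the contrast rests on regulatory T cells, CD8-UMI cells were also set against CD4-UMI cells without a Foxp3 UMI, of which there were 45. In that fit 2 of 248 genes were higher and 8 lower. Icos (-1.94, adjusted p = 0.0373), Tnfrsf4 (-2.84), Ctla4 (-2.55) and Ms4a4b (2.33, adjusted p = 0.0373) still passed. Gzmb had a log2 fold change of -1.28 (adjusted p = 0.143) and Tnfrsf9 of -1.10 (adjusted p = 0.373), and both missed the threshold. Cells with a Foxp3 UMI and CD4-UMI cells without one had overlapping levels of Il2ra, at 1319, 972 and 1544 CPM, against 1655, 1454 and 1276 CPM. Gzmb stood at 5507, 7419 and 8730 CPM in cells with a Foxp3 UMI, against 5586, 4363 and 3986 CPM, so it was close in anti-CD40 tumour 1 and higher in the other tumours. A CD4-UMI cell without Foxp3 UMIs cannot be told apart from a regulatory T cell whose Foxp3 RNA was missed.

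Cells of neither class held UMIs of genes from both sides of the contrast, but not all at a level between the classes. They had 4832, 4680 and 4232 CPM of Gzmb and 890, 872 and 838 CPM of Il2ra in anti-CD40 tumours 1 and 2 and the untreated tumour, which lie between the CD8-UMI and CD4-UMI values. Among genes higher in CD8-UMI cells, Nkg7 UMIs were in 22.8% of cells of neither class, against 80% of CD8-UMI and 26.5% of CD4-UMI cells. After thinning these shares were 14.8%, 58.3% and 14.5%, so Nkg7 stood near its CD4-UMI share. For Ms4a4b the shares without thinning were 27.5%, 72% and 17.7% in the same order. Those of Ccl5 were 17.6%, 52% and 13.3%, and those of Plac8 10.4%, 44% and 7.08%. Gamma delta T cells carry another receptor. Their markers summed to 318, 638 and 251 CPM in cells of neither class, from 5, 30 and 12 UMIs. The same markers summed to 0, 0 and 130 CPM in CD4-UMI cells and to 0 CPM in the small CD8-UMI sums of every tumour. In NK cells they stood at 155, 98.2 and 129 CPM, so they do not single out gamma delta T cells. Cells of neither class also held RNA of other cell types. Monocyte and macrophage markers summed to 572, 340 and 4903 CPM in them, against 44.3, 364 and 995 CPM in CD4-UMI cells and 0, 0 and 350 CPM in CD8-UMI cells. The share of cells with markers of a second type was 14.3%, 12.9% and 25.5% in cells of neither class, and 0 of 25 in CD8-UMI cells.

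The second comparison set T cells of the 2 anti-CD40 tumours against those of the untreated tumour. Klf2, Il7r, Cxcr4, Klf6, Tsc22d3, Ctla4, Il10, Ccl5 and Serinc3 were higher after anti-CD40, and S100a4, Lgals1 and Ccl4 were lower, while Gzmb, Icos, Il2ra and Foxp3 had folds near 0. Marker genes of neutrophils, macrophages and dendritic cells also passed the test. With 1 untreated tumour the fit had 1 residual degree of freedom, and the untreated tumour was assumed to vary like the treated ones. Its prior degrees of freedom were infinite, so the p-values rest on a spread shared over genes. In edgeR 20 of 2568 genes (0.779%) rose and 25 (0.974%) fell. At an unadjusted p under 0.05 there were 278, and the median log2 fold change was 0.02. With DESeq2, 0 were higher and 1 (H2-Eb1) lower, and with edgeR after leaving out cells with markers of a second type 1 was higher (Serinc3) and 1 lower (Ccl4). Without pool 4, which holds part of anti-CD40 tumour 2, edgeR called 0 either way, with 136 at an unadjusted p under 0.05. The folds of the T cell genes below changed little when cells with markers of a second type were left out, while the prior degrees of freedom of that fit were 12.9. The calls on single genes are therefore weak, and the values of each tumour are given with them.

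Klf2 (chr8:72319033-72321656, plus strand) encodes a transcription factor of naive and circulating T cells that sustains exit from tissue. It stood at 785 and 841 CPM in anti-CD40 tumours 1 and 2, against 157 CPM in the untreated tumour, with a log2 fold change of 2.36 ± 0.43 (adjusted p = 1.01e-05, edgeR). Without cells with markers of a second type the fold change was 2.39 ± 0.49 (adjusted p = 0.107). Klf2 UMIs were found in 19.1% and 13.4% of T cells thinned to 300 UMIs, against 5.6%. Both treated tumours lay above the untreated one on both scales, which the naming rule required for CPM.

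Il7r, whose product carries survival signals to naive and memory T cells, stood at 647 and 439 CPM, against 131 CPM (1.95 ± 0.48, adjusted p = 0.00413, or 2.26 ± 0.56 without cells with markers of a second type, adjusted p = 0.178). In the list of naive, memory and recirculation genes Klf2 and Il7r passed among 8 tested, and all 8 had a positive fold change, with a median of 1.45, or 1.18 over 6 genes without cells of a second type, against 0.02 for all genes. Ccr7, a chemokine receptor that guides T cells to lymph nodes, had 4 and 19 UMIs, against 3 (adjusted p = 0.315), and S1pr1, whose product leads T cells out of tissue, had 8 and 7 UMIs, against 2 (adjusted p = 0.46). These list members did not pass. Members this low in the untreated tumour could enter the test through a treated tumour alone, which fixed their direction. The count of positive folds and the median therefore describe the tested members only. Tcf7, a factor of naive and stem-like T cells, had 5 and 4 UMIs, against 2, too few for a test. Within pool 1 the log2 fold change of Klf2 was 1.59 and that of Il7r 4.04. Within pool 2 these log2 values were 3.19 and 1.00, and neither pool allowed a test.

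Cxcr4, the receptor of the chemokine CXCL12, stood at 439 and 692 CPM, against 131 CPM (2.17 ± 0.46, adjusted p = 0.000411), and was the 1 gene past the test among 12 trafficking and residency genes. Klf6, a related factor, stood at 647 and 832 CPM, against 196 CPM (1.94 ± 0.42, adjusted p = 0.000416). Tsc22d3, which glucocorticoids induce, had 19 and 41 UMIs, against 3, a ratio of 10.2 (95% counting interval 3.32 to 50.8). All of these values are higher in both treated tumours, which the naming rule required. Within pools 1 and 2 the log2 fold change of Cxcr4 was 2.10 and 1.38. Jund, an AP-1 subunit, was also higher (1.40 ± 0.29, adjusted p = 0.000222). Jund is on the list of genes that tissue dissociation can induce, whose 19 tested members had a median of 0.73 with 2 past the test. Their summed level was 11801 and 14542 CPM in T cells of anti-CD40 tumours 1 and 2, against 9888 CPM in those of the untreated tumour, and its part in the higher levels of Klf2, Klf6, Cxcr4 and Tsc22d3 was not tested.

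Ctla4 (chr1:60887000-60915832, plus strand) stood at 2379 and 2056 CPM in T cells of anti-CD40 tumours 1 and 2, against 888 CPM in the untreated tumour. The log2 fold change was 1.29 ± 0.26 (adjusted p = 0.00016, edgeR), or 1.10 ± 0.27 without cells with markers of a second type (adjusted p = 0.178). In CD4-UMI cells alone it was 1.62 ± 0.36 (adjusted p = 0.444) and in cells of neither class 0.83 ± 0.36 (adjusted p = 0.413). After thinning, a Ctla4 UMI was found in 40.4% and 35.4% of T cells, against 23.4%. Il10, at 531 and 533 CPM, against 144 CPM, was the only other gene past the test (1.87 ± 0.46, adjusted p = 0.00515) among 15 tested genes of the regulatory list, whose median was 0.08. Within pools 1 and 2 the log2 fold change of Ctla4 was 1.57 and 1.41, and that of Il10 1.31 and 2.98. Both genes were higher in both treated tumours, which the naming rule required.

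The remaining regulatory and activation genes gave folds near 0. Foxp3 stood at 439 and 421 CPM, against 470 CPM (-0.15 ± 0.37, adjusted p = 0.93), Il2ra at 1085 and 963 CPM, against 967 CPM (0.05 ± 0.29), and Icos at 3210 and 2533 CPM, against 2534 CPM (0.14 ± 0.22). Gzmb stood at 4965 and 5290 CPM, against 5068 CPM (0.01 ± 0.19, adjusted p = 0.998), and its 3 values lay within each other's counting error. A Gzmb UMI was found in 70.8% and 73.3% of T cells, against 55.3%, and after thinning in 61.7% and 58.3%, against 59.7%. Nkg7 (-0.11 ± 0.31), Pdcd1 (0.20 ± 0.64) and Lag3 (0.14 ± 0.42) did not pass either. The 7 tested cytotoxic genes had 0 calls and a median of 0.36.

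Other trafficking, activation and cytokine receptor genes did not pass. Ccr2 stood at 624 and 692 CPM in anti-CD40 tumours 1 and 2, against 771 CPM in the untreated tumour (-0.22 ± 0.32, adjusted p = 0.852). Cxcr6, which holds T cells in tissue, stood at 162 and 215 CPM, against 353 CPM (-0.84 ± 0.45, adjusted p = 0.491), and Cd69, an early activation and residency marker, at 185 and 383 CPM, against 248 CPM (0.33 ± 0.45, adjusted p = 0.841). The untreated Cxcr6 value was the highest and that of Cd69 lay between the treated ones. Tnfrsf9, induced by receptor signalling, stood at 1640 and 1215 CPM, against 1933 CPM (-0.49 ± 0.24, adjusted p = 0.439). Nr4a1, an immediate target of the same signal, stood at 624 and 589 CPM, against 849 CPM (-0.51 ± 0.32, adjusted p = 0.58). Of the receptor genes of interleukin-12, Il12rb1 had 3 and 16 UMIs, against 12, and Il12rb2 had 0 and 0 UMIs, against 1.

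Serinc3, a multipass membrane protein gene whose exons overlap 0610039K10Rik on the other strand, stood at 2587 and 2822 CPM, against 888 CPM (1.60 ± 0.26, adjusted p = 2.2e-07). It was the gene that also passed without cells with markers of a second type (1.49 ± 0.24, adjusted p = 0.0272). Whether counting used strand is not given in the sources used here, so reads of both genes cannot be told apart. Ccl5 stood at 1293 and 822 CPM, against 457 CPM (1.12 ± 0.34, adjusted p = 0.0475), with the 56 UMIs of anti-CD40 tumour 1 in 6 cells. Ets1, Bhlhe40, Btf3, Fam107b, Tmem123 and Atp1b3 were higher too, with log2 fold changes of 1.28 to 1.76.

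**Figure D4:**
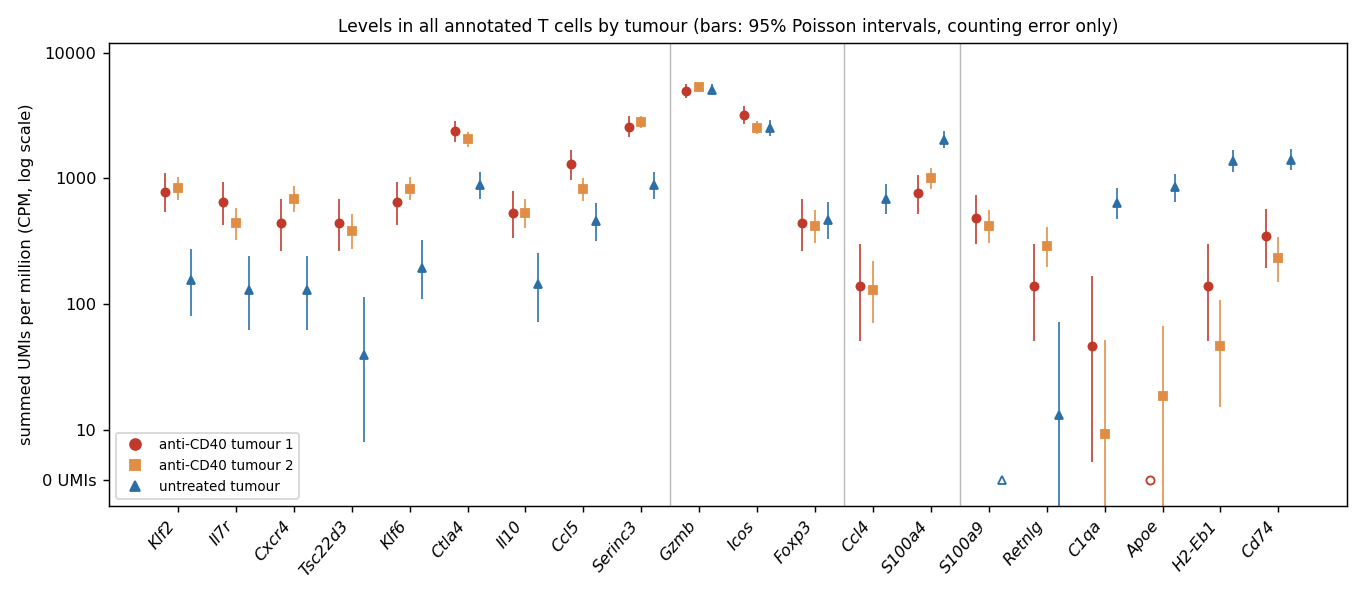
Summed level in CPM (log axis) in all T cells by tumour, with exact 95% Poisson intervals that cover counting error only and open symbols for 0 UMIs. From left to right are T cell genes higher after anti-CD40, 3 genes near their untreated level, 2 that were lower, and markers of neutrophils and of macrophages and dendritic cells. Klf2 lies at 785 and 841 CPM in the anti-CD40 tumours, against 157 CPM in the untreated tumour.

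Of the genes lower after anti-CD40, S100a4, a calcium-binding protein of memory and effector T cells, stood at 762 and 1000 CPM, against 2038 CPM (-1.17 ± 0.25, adjusted p = 0.000411, or -1.23 ± 0.25 without cells of a second type, adjusted p = 0.107). Lgals1 (galectin 1; -0.77 ± 0.21) and S100a11 (-1.02 ± 0.29) also passed, as did Hivep2, Lypla2 and U2af2. For S100a4 both treated tumours were below the untreated one, which the naming rule required. Ccl4, a chemokine of activated T and NK cells, had 6 and 14 UMIs, against 53 (-2.37 ± 0.42, adjusted p = 3.15e-06). Of those 53 UMIs, 34 were in 1 CD8-UMI cell.

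The genes with the lowest p were markers of other cell types. H2-Eb1, an MHC class II chain, stood at 139 and 46.7 CPM, against 1385 CPM (-4.19 ± 0.41), and its 106 UMIs in the untreated tumour were in 20 cells. C1qa, a complement chain of macrophages, had 2 and 1 UMIs, against 49 in 22 cells, and Apoe had 0 and 2, against 65 in 22 cells. C1qc had 0 UMIs in the treated tumours and was at least 22.9 times higher in the untreated one. In all, 17 of the 25 lower genes had this pattern of myeloid or class II genes, namely H2-Eb1, H2-Aa, H2-Ab1, Cd74, Apoe, C1qa, C1qb, C1qc, Lyz2, Tgm2, Fn1, Fcgr2b, Ms4a6c, Tgfbi, Arg1, Cst3 and Grn, a grouping made after their values were seen.

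The 12 monocyte and macrophage markers summed to 231 and 318 CPM in T cells of anti-CD40 tumours 1 and 2, against 3383 CPM in those of the untreated tumour, with UMIs of 4, 8 and 12 of them. They summed to 17454, 27301 and 27961 CPM in the monocyte, macrophage and dendritic class itself. Dendritic markers summed to 808 and 533 CPM, against 4310 CPM, while Flt3, Clec9a, Fscn1 and Siglech were at 0 UMIs in T cells. Of 6 tested monocyte and macrophage markers 5 were lower, with a median of -4.03, or -3.84 with C1qc at its bound, and of 5 dendritic markers 4 were lower, with a median of -3.53. Such markers could enter the test through the untreated tumour alone, so these values describe the tested members only. The same 2 lists summed to 51.7 and 164 CPM, against 1887 CPM, and to 25.8 and 115 CPM, against 2016 CPM, in NK cells, which were thus also higher in the untreated tumour. Cd74, the class II invariant chain, had a log2 fold change of -2.38 ± 0.33 in all T cells (adjusted p = 2.98e-10), 0.78 ± 0.61 without cells with markers of a second type (adjusted p = 0.757) and 0.20 ± 0.62 in CD4-UMI cells (adjusted p = 0.929), so its direction turned. H2-Eb1, Apoe and C1qa had too few UMIs left to be tested without those cells.

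Neutrophil markers went the other way. They summed to 1316 and 1131 CPM in T cells of anti-CD40 tumours 1 and 2, against 118 CPM in those of the untreated tumour, with UMIs of 6, 8 and 4 of the 8 markers, and to 0 CPM in CD8-UMI cells of all 3 tumours. S100a9, a calprotectin subunit of neutrophils, had 21 and 45 UMIs, against 0, and was at least 11.2 times higher, but each treated value came from 1 cell. Retnlg had 6 and 31 UMIs, against 1, again in 1 cell per tumour, and 27 S100a8 UMIs of anti-CD40 tumour 2 were in 1 cell. These 3 were all the neutrophil markers tested, and all 3 passed, with a median of 4.62, or 4.01 with S100a9 at its bound, but they entered the test only through the treated tumours. Hspa1a, a heat shock protein gene, had 1 and 43 UMIs, against 0, with 22 UMIs in 1 cell, and was at least 7.47 times higher. The calls of all 4 genes rest mostly on single cells.

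Lists of interferon and growth genes had no member past the test. Of 15 tested type I interferon genes 0 passed, with a median of -0.38, and of 18 interferon gamma genes 0 passed, with a median of -0.34. Ifi27l2a, the list member with the most UMIs, stood at 2425 and 1692 CPM, against 3017 CPM (-0.61 ± 0.22, adjusted p = 0.172). Proliferation (15 tested, median 0.05), activation and signalling (15, -0.03), interleukin-12 and interleukin-18 response (6, -0.23), MHC class I (11, 0.05), glycolysis and hypoxia (16, -0.28), lineage regulators (12, 0.16), the receptor and CD3 list (17, 0.19), ribosomal proteins (27, 0.21) and mitochondrial transcripts (11, 0.03) had 0 calls each. A miss of the threshold at this depth does not show that a gene was level.

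**Figure D5:**
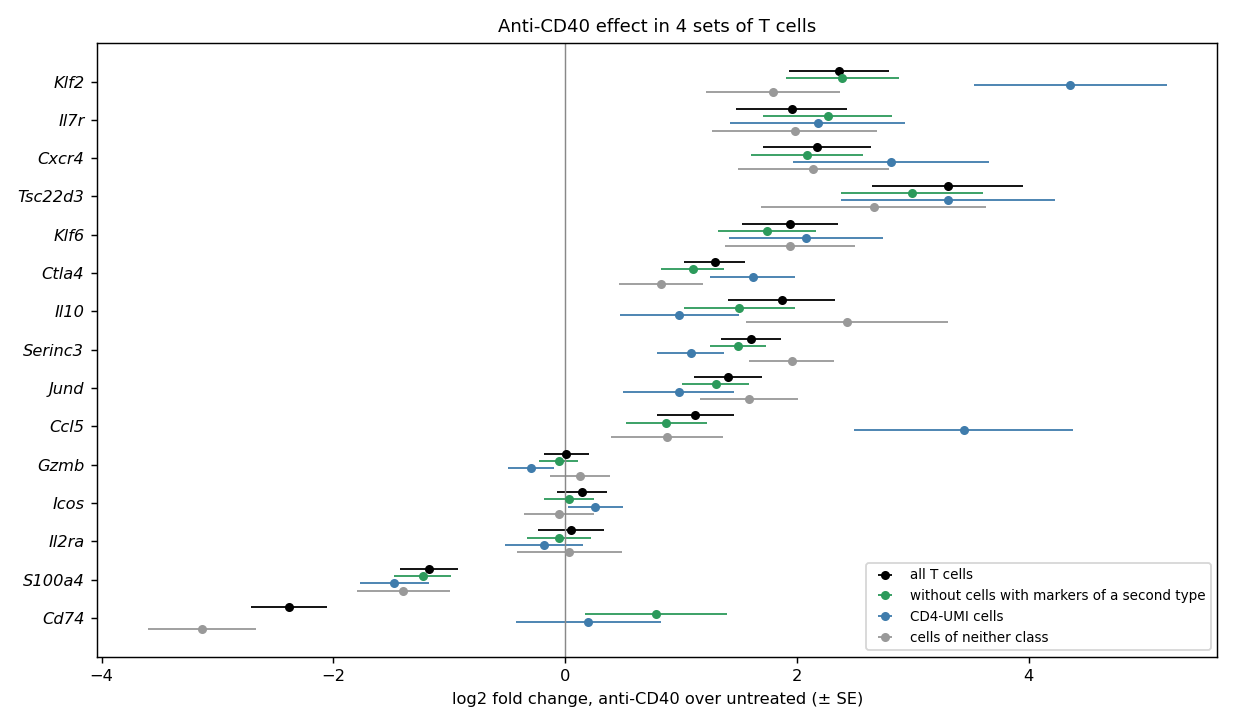
Log2 fold change of 15 genes, anti-CD40 over untreated, with standard errors, in all T cells, without cells with markers of a second type, in CD4-UMI cells and in cells of neither class. Klf2 is positive in all 4 sets, Gzmb stays near 0 (0.01 in all T cells), and Cd74 turns to 0.78 without cells with markers of a second type.

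Further fits asked whether the anti-CD40 effect differed between cells. Each had 1 untreated tumour and 1 residual degree of freedom. The CD8-UMI sums came from 4 and 10 cells in anti-CD40 tumours 1 and 2, against 11 in the untreated tumour. The counts below are of genes past the threshold, and a gene that missed it is not shown to have had equal effects. Between CD8-UMI and CD4-UMI T cells, 0 of 545 genes (0%) had an effect that differed in edgeR, 27 had an unadjusted p under 0.05, and DESeq2 also called 0. The lowest p belonged to Tmsb4x, which binds actin monomers, with a difference of effects of 1.01 ± 0.26 (lowest adjusted p = 0.748). Between T cells and NK cells, 0 of 2181 genes (0%) differed, with 95 at an unadjusted p under 0.05 and 0 by DESeq2. Ccl4 came closest: it had 6 and 14 UMIs in T cells of the anti-CD40 tumours, against 53 in those of the untreated tumour, and 45 and 86 UMIs, against 10, in NK cells (difference of effects -3.40 ± 0.69, adjusted p = 0.0524). Of the untreated T cell UMIs, 34 were in 1 cell, and the difference without that cell was not tested.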

How the data were processed

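Single-cell RNA of CD45+ cells from 3 MC38 tumours was measured by inDrops in 4 pools and 12 libraries. The authors deposited raw UMI counts (whole numbers) for each gene in each cell, not normalised, and a table that names each cell's library, animal, condition and major cell type. STAR, bcl2fastq and the build GRCm38 are named by the submitters' processing notes. Their versions, the counter, the annotation, strand, cell filters and doublets are not covered by the labels. Every deposited T cell was kept, without a doublet caller; cells with at least 3 UMIs of a second type's markers were left out as an alternative. The members and lists were chosen with earlier results of these data known.

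Counts were summed per tumour and class, since cells and libraries of 1 tumour are not replicates. The sums were fitted with edgeR 4.0.16 (limma 3.58.1, R 4.3.3), with TMM and filterByExpr at a minimum count of 5 and total of 15. The robust quasi-likelihood test was used, with Benjamini-Hochberg adjustment over all genes fitted and a threshold of 0.05. The class fit had the tumour as a block, since both classes come from the same tumours. SEs were derived from the F statistic. The 4 class genes were fitted and entered the adjustment of the class fits, but they are not counted and their p-values are not used as tests. The fits were tested on simulated data. DESeq2 1.42.0, other filters, scalings, classes and subsets were alternatives. Python 3.11.15, numpy 2.4.6, scipy 1.17.1 and pandas 2.3.3 did the rest.

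Genes named were up to 15 each way with the lowest p past the threshold and 1 sign in all tumours (class) or both treated tumours (anti-CD40), the 25 leading markers and 10 against NK cells, and members of the 28 lists that passed or had the most UMIs; genes with too few UMIs for a test, and single-cell counts, were picked after their values were seen. Some genes that met the rule are not reported here. A count of 0 was read as up to 3 counts over the group. Coordinates are those of GENCODE on GRCm38, and promoters those of RefSeq.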

Additional observations from a re-analysis of the deposited data

Results flagged for a closer look

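The CD8-UMI share of classed T cells was 50% in 1 of the 4 libraries of anti-CD40 tumour 2, from 4 of 8 cells, while the other 3 libraries lay at 9.1%, 9.5% and 12.5%. The gap between this library and the nearest other one was large against the range of all 4 by Dixon's criterion. Without it the share of the tumour was 10.7%, against 15.6% with it. It was the 1 group that stood out among 18 groups of 4 libraries examined, and chance alone marks about 1 in 20 such groups. The cause was not tested.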

How the results depend on the processing

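The CD8-UMI counts of 6 higher and 24 lower genes became 2 and 8 against CD4-UMI cells without Foxp3 UMIs and 0 and 3 with cells thinned to 300 UMIs, where 93 genes could be tested. Without cells with markers of a second type 10 were higher, and with no filter on low counts 48 were lower. Leaving out each tumour gave 0 to 7 higher and 0 to 18 lower genes, with 0 and 0 without anti-CD40 tumour 2 and 13 lower without anti-CD40 tumour 1. Without the tumour block 7 were higher and 26 lower. Apart from the fits without a tumour, where the choice of genes fixed the direction, no named gene turned direction in any alternative that could test it. The alternatives refit largely the same counts that chose these genes, so they are no independent check of direction. With thinned cells, 4 of the 15 lower and 2 of the 6 higher named genes could be fitted.

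The anti-CD40 counts of 20 higher and 25 lower genes became 0 and 1 with DESeq2, 8 and 11 with thinned cells, 1 and 1 without cells with markers of a second type, 0 and 0 without pool 4, 7 and 12 without pool 2, 12 lower without pool 1, and 10 higher with no filter. In subsets chosen after seeing the data they were 0 and 0 in CD4-UMI cells and 13 and 16 in cells of neither class. Prior degrees of freedom were 12.9, 2.87 and 7.47 without second-type cells, without pool 4 and in CD4-UMI cells, and infinite in the other edgeR fits of this contrast. Cd74 reversed to 0.78 without second-type cells and 0.20 in CD4-UMI cells. All 15 higher and 15 lower named genes kept direction within pools 1 and 2, which split the tumours that chose them and allow no test.

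The 0 genes whose effect differed between the classes became 1 with a minimum count of 10, 1 with library sizes and 2 with no filter. Between T and NK cells the 0 became 1 under each of these, without second-type cells, without pool 2 and without pool 3. CD8-UMI shares moved within their intervals: leaving out 1 library gave 13.6 to 16.7% and 10.7 to 18.6% in anti-CD40 tumours 1 and 2, against 17.9 to 28.9% in the untreated tumour. Causes were not tested. Of the sums compared, those of CD8-UMI cells were the smallest, at 4245 to 9295 UMIs.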
